A study of Rattus norvegicus and Mus musculus with 61 samples.

Results

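Rat parieto-occipital cortex taken 4 h after a fluid percussion injury was compared with the same region taken 30 min after it, on 8 arrays of the 61 in the series (3 at 4 h and 5 at 30 min). Members were chosen by the time and the surgery named in the sample labels. All rats were male Sprague-Dawley animals of 400 ± 25 g, the injury was a brief pressure pulse of 2.5 atm given under sodium pentobarbital, and each array carried total RNA from a disk of 7 mm from 1 rat, centred on the impact and holding the contusion. Sham-operated rats, anaesthetised in the same way, gave 4 arrays at 4 h and 4 at 30 min, and untouched (naive) rats gave 3. No age was given in the labels. The injured disks taken at 4 h all carry the letter b in their titles and those taken at 30 min the letter a. The sham samples of both times carry the letter a. What the letter stands for is not stated. It cannot be told apart from the time after injury, from injury against sham at 4 h, or from the difference between the changes after injury and after sham.

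Fluid percussion drives a pulse of fluid against the dura through an opening in the skull, which deforms the cortex and leaves a contusion with torn vessels. In such tissue a first wave of transcription is known to run through immediate early genes, which need no new protein to be switched on and mostly encode transcription factors. A later wave is known to depend on newly made or newly activated factors such as NF-kB and heat shock factor, and to hold cytokines, chemokines that draw in leukocytes, chaperones and acute phase genes.

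Levels are deposited intensities of 1 probe set a gene on a linear scale, and each difference is in log2 units, 4 h minus 30 min, ± the standard error from limma. A gene was called when its Benjamini-Hochberg adjusted p over all 4089 genes tested was below 0.05. The array injury 30 min replicate 5 stood apart from the others: its median correlation with the rat arrays was 0.755, against 0.869 to 0.928 for the other 7 injured samples, and its ratio of 3′ to 5′ Gapdh control probe sets was 3.06, against 0.889 to 1.04. Among sham arrays, 4 h replicates 3 and 4 (0.662 and 0.537) and 30 min replicate 3 (0.785) also stood apart. The ratio for beta actin was 1.0 to 1.39 at 4 h and 1.11 to 3.34 at 30 min, and that for hexokinase 1.67 to 1.83 at 4 h and 1.01 to 3.10 at 30 min, so these ratios, which move with RNA quality, spread wider at 30 min. The part of RNA quality in the results was not tested beyond leaving arrays out.

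Between 4 h and 30 min after injury, 19 of 4089 genes were called (0.465%), of which 16 rose (0.391%) and 3 fell (0.0734%). The genes that rose were cytokines and chemokines (Il6, Il1b, Ccl2, Ccl3, Ccl4, Cxcl2), stress proteins (Hspa1a, Hspb1, Hmox1, Gadd45a), secreted proteins of reactive tissue (Timp1, Spp1, Lcn2), the neutrophil and myeloid protein gene S100a8, and Ifitm3 and P4ha1. Their differences ran from 1.03 to 4.85. The genes that fell were P2ry12, RT1-DMb and Slco1a4. At an unadjusted p below 0.05 there were 346 genes, 151 higher and 195 lower at 4 h, and the median difference over all genes was -0.06. Groups did not overlap for 17 of the 19, while 7.75% of all genes had no overlap (3.72% higher and 4.04% lower at 4 h).

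**Figure D1:**
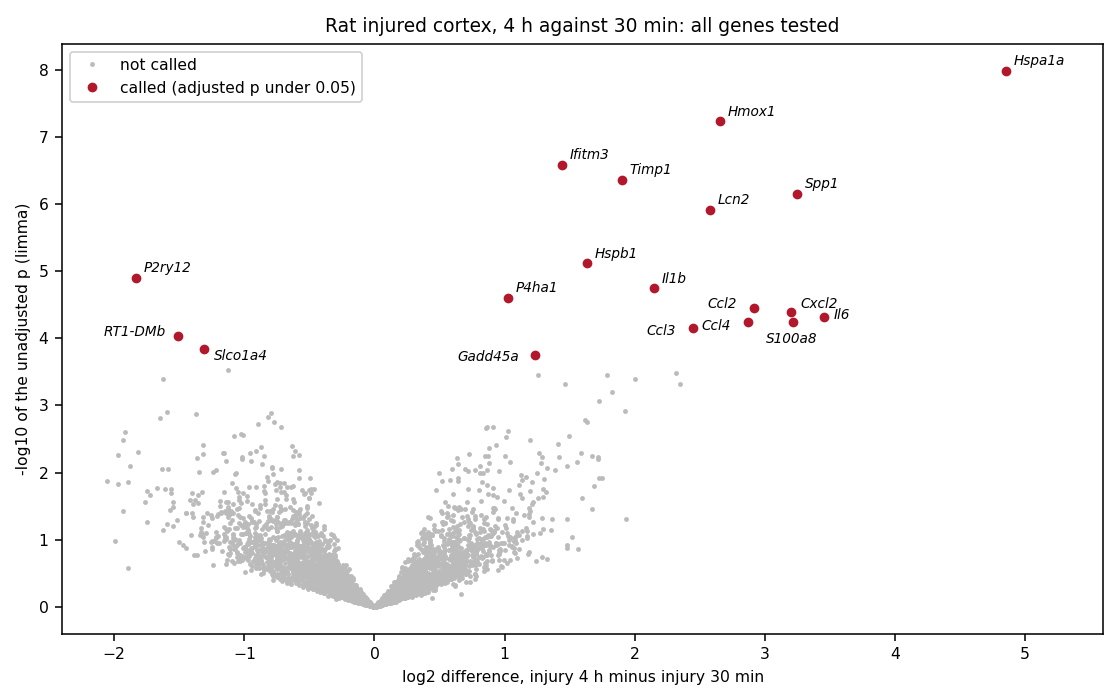
Each point is 1 of the 4089 genes tested, with the log2 difference, injury 4 h minus injury 30 min, on the horizontal axis and -log10 of the unadjusted limma p on the vertical axis. The 19 called genes are labelled: 16 lie to the right and 3 to the left, with Hspa1a farthest out at 4.85.

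Without injury 30 min replicate 5, 21 genes were called (0.514%), 19 higher (0.465%) and 2 lower (0.0489%), and 17 of the 19 were among them. Gadd45a (adjusted p = 0.0709) and Slco1a4 (adjusted p = 0.108) lost the call, and the cytokine Il1a, the adhesion receptor Icam1, the phospholipase Pla1a and the actin cross-linker Flnc gained it. Without the 4 arrays that stood apart 32 genes were called (0.783%), 27 higher (0.66%) and 5 lower (0.122%), all 19 among them. Leaving out 1 array at 4 h moved the count further. Without injury 4 h replicate 1 there were 7 calls, without replicate 2 there were 6, and without replicate 3 there were 25. Hspa1a, Spp1, Hmox1, Lcn2, Timp1 and Ifitm3 kept their call whichever single array was left out, and the other 13 lost it without injury 4 h replicate 2, all but S100a8 of them also without replicate 1. Fitting the 8 arrays alone, with their own estimate of the spread, left 2 calls, Hspa1a and Ccl3. Some calls also moved just past the threshold when 1 array at 30 min was left out, with adjusted p between 0.05 and 0.0522. These were Ccl4 and Il6 without replicate 1, Cxcl2 without replicate 3, and Ccl3 without any 1 of replicates 1, 3 or 4.

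The chemokines are small secreted proteins that attract leukocytes. Ccl3 (macrophage inflammatory protein 1 alpha) stood at 4460, 5560 and 2000 in the 3 samples at 4 h, against 595, 827, 600, 539 and 869 at 30 min. Ccl4, its close relative, stood at 2040, 2390 and 907 at 4 h, against 152, 155, 220, 369 and 302 at 30 min. Neither gene's groups overlapped, and the rise was 2.45 ± 0.54 for Ccl3 (5.46-fold, adjusted p = 0.0177) and 2.87 ± 0.62 for Ccl4 (7.3-fold, adjusted p = 0.0158).

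Ccl2 (monocyte chemoattractant protein 1) stood at 3480, 4290 and 572 at 4 h, against 229, 262, 187, 310 and 414 at 30 min. Cxcl2, which attracts neutrophils, stood at 1210, 1120 and 797 at 4 h, against 117, 162, 14.9, 116 and 246 at 30 min. Both were higher in each sample at 4 h than in any at 30 min, with Ccl2 in replicate 3 close to the upper end of the earlier group. The rise was 2.92 ± 0.61 for Ccl2 (7.56-fold, adjusted p = 0.013) and 3.20 ± 0.67 for Cxcl2 (9.19-fold, adjusted p = 0.0137). For Cxcl2 the value of 14.9 lay under the floor of 32.3, and the difference ran from 2.75 to 3.61 over the 17 alternatives.

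Among interleukins, Il6, which drives the acute phase response through STAT3, stood at 1360, 919 and 419 at 4 h, against 24.7, 39.9, 54.2, 152 and 203 at 30 min. The groups did not overlap, and the rise was 3.46 ± 0.74 (11.0-fold, adjusted p = 0.0151). The value of 24.7 lay under the floor of 32.3, and the Il6 difference ran from 2.74 to 4.34 over the 17 alternatives. Il1b, an inflammatory cytokine of activated microglia and macrophages, stood at 1570, 2030 and 1060 at 4 h, against 246, 270, 178, 375 and 1010 at 30 min. Its groups did not overlap, and the highest sample at 30 min, close to the lowest at 4 h, was replicate 5, the array that stood apart. The rise was 2.14 ± 0.43 (4.42-fold, adjusted p = 0.0082), and 2.54 without that array (adjusted p = 0.000262). Other Il1b probe sets gave 3.70 and 2.30, the second not called (adjusted p = 0.341 over all probe sets), so the size is uncertain. Il1a, the sister cytokine, stood at 1480, 1180 and 1300 at 4 h, against 319, 219, 271, 640 and 1140 at 30 min. Its groups did not overlap, and the difference of 1.63 ± 0.48 was not called with all arrays (adjusted p = 0.192) and was called without replicate 5 (adjusted p = 0.0303).

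Of the 23 genes on the list of cytokines and chemokines, 14 passed the filter on low values and were tested, and 6 of the 14 rose and none fell. The median difference over the 14 was 1.44, against -0.06 over all genes, and 7 did not overlap between the times, all higher at 4 h, where 3.72% of all genes were higher without overlap. The chemokine Cxcl10 (1.26, adjusted p = 0.49) and Ccl20 (0.69) were not called, and Il18 (-0.15), Csf1 (-0.37) and Lif (-0.36) lay below 0 with all arrays. Tnf did not pass the filter, and Cxcl1 was not analysed here. All 6 calls were lost without injury 4 h replicate 1 or without replicate 2, where the 6 differences were still 1.93 to 3.36 with an adjusted p of up to 0.302, and 3 members of the list were called without injury 30 min replicate 1.

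**Figure D2:**
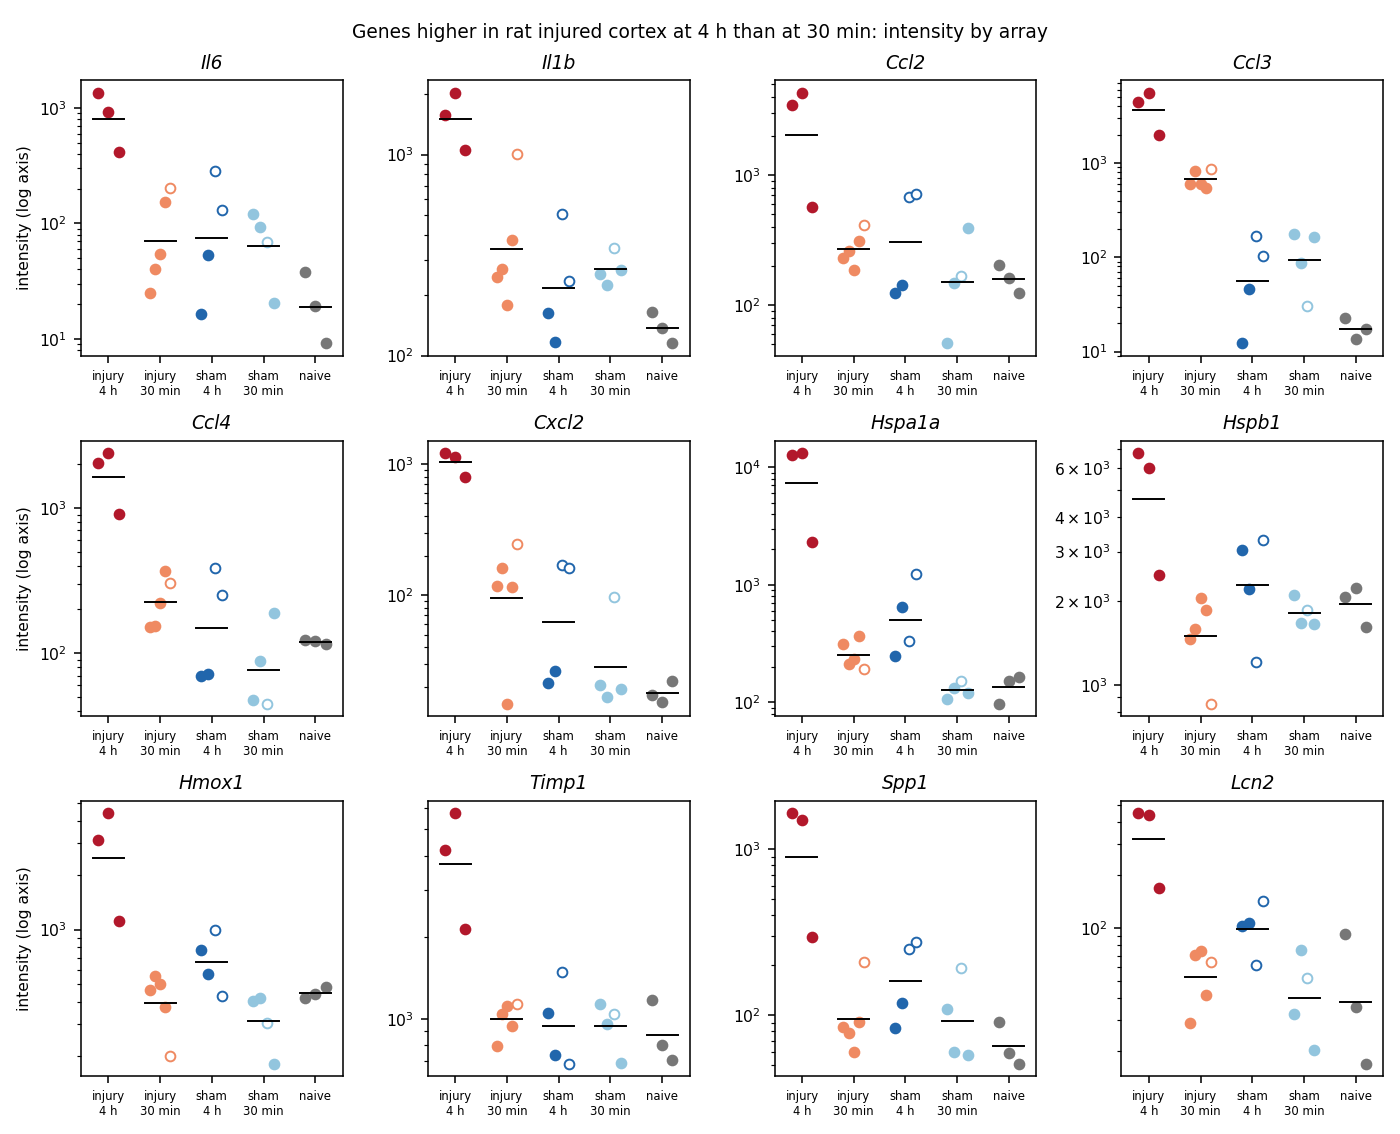
Intensity on a log axis for 12 genes that rose, 1 panel a gene, with 1 point an array for injury 4 h, injury 30 min, sham 4 h, sham 30 min and naive cortex. Open points are the 4 arrays that stood apart from the other rat arrays, and bars are geometric means. In all 12 panels each of the 3 samples at 4 h after injury lies above every sample at 30 min, and replicate 3 is the lowest of the 3.

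The proximal promoters of 2 of these genes are shown because they hold a match to the NF-kB consensus close to the start site. They are from RefSeq (GRCr8), 250 bases before to 50 after the start. Cxcl2 lies at chr14:17467206-17467505 and Il6 at chr4:5894526-5894825, both on the minus strand and printed in the gene's direction. Capitals mark the NF-kB consensus (bases -74 to -64 from the Cxcl2 start, where 2 matches overlap, and -68 to -59 from the Il6 start) and, in Il6, the cAMP response element TGACGTCA (-162 to -155).
Cxcl2 promoter: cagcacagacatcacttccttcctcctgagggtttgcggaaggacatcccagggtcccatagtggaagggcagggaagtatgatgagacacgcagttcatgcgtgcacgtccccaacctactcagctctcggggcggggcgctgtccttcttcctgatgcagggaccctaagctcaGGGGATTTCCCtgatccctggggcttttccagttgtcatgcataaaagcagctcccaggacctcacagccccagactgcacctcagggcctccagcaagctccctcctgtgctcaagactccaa
Il6 promoter: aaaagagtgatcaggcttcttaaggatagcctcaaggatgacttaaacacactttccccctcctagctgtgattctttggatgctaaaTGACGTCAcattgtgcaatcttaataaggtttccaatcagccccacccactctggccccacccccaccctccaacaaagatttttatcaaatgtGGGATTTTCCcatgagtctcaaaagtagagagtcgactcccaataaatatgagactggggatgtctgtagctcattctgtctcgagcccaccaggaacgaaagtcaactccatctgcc
Of the 19 called genes, 12 had a promoter in the table, 11 that rose and 1 that fell. The NF-kB consensus, searched on both strands, was in 5 of the 11 (Cxcl2, Il6, Ifitm3, Lcn2 and P4ha1), against 10% of the 3358 promoters of tested genes and 7.6% of all 27457. Il1b, the third of the 3 called cytokine and chemokine genes with a promoter, held no match. Ccl2, Ccl3 and Ccl4 had no promoter to search. The cAMP response element was in 1 of the 11 and 2.56% of the promoters of tested genes. AP-1 (TGACTCA, 3.9%) and the CArG box (1.58%) were in none of the 11. A match is a string of letters and was not tested as a binding site.

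Genes that carry cytokine signals inward showed no call. Of 14 tested receptors and NF-kB and STAT pathway genes, 0 were called by limma and 3 had an unadjusted p below 0.05, all higher at 4 h, and the median difference was 0.26. Nfkb1, which encodes the p105 precursor of an NF-kB subunit, stood at 1570, 1940 and 1110 at 4 h, against 643, 442, 416, 293 and 450 at 30 min. These values did not overlap, and the difference was 1.79 ± 0.45 (adjusted p = 0.0621, and 0.000204 without the 4 arrays that stood apart). The tumour necrosis factor receptor gene Tnfrsf1a (1.25), the interferon-related factor gene Irf1 (0.91) and the inhibitor gene Nfkbia (0.44) were also higher at 4 h without overlap and were not called. Socs3, a feedback inhibitor of STAT3, stood at 616, 695 and 132 at 4 h, against 106, 160, 55.9, 1060 and 138 at 30 min. Its groups overlapped (1.18 ± 0.83, adjusted p = 0.664). Injury 30 min replicate 4 lay above every sample at 4 h, and injury 4 h replicate 3 lay inside the range of the other earlier samples.

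Of the probe sets that stood for the called genes, the one with the largest rise was of a chaperone. Hspa1a, the inducible 70 kDa heat shock protein, stood at 12800, 13200 and 2330 at 4 h, against 311, 211, 231, 366 and 190 at 30 min. Replicate 3 was well below the other 2 samples at 4 h and still far above every sample at 30 min. The difference was 4.85 ± 0.64 (28.9-fold, adjusted p = 4.24e-05), and Hspa1a was the only gene that kept its call under all 17 alternatives tried, with differences of 4.43 to 5.68. The near-identical Hspa1b could share its signal, so the 2 copies cannot be separated here.

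Hspb1, a small heat shock protein known from reactive astrocytes, stood at 6770, 6000 and 2470 at 4 h, against 1460, 1590, 2050, 1860 and 855 at 30 min. The samples did not overlap, and the rise was 1.63 ± 0.31 (3.1-fold, adjusted p = 0.00448). Other probe sets of the gene gave 0.33, 2.80 and 3.96. The first was not called (adjusted p = 0.74 over all probe sets), so both the call and the size depend on the probe set. Without injury 4 h replicate 1 or 2 the Hspb1 call was lost, which left Hspa1a as the only call of its list. Of 15 tested heat shock and chaperone genes 2 rose and none fell, 14 lay above 0, and the median was 0.55. The high-molecular-weight chaperone gene Hsph1 was higher without overlap (0.88, adjusted p = 0.301), and Dnajb1 (0.94), Cryab (0.76) and the collagen chaperone gene Serpinh1 (1.19) overlapped and were not called.

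The Hspb1 promoter is shown because it holds 2 matches to the heat shock element within the printed window. It lies at chr12:26432252-26432551 on the minus strand (RefSeq, GRCr8), printed in the gene's direction, with the letters GAANNTTC in capitals at -129 to -122 and -109 to -102 from the start.
Hspb1 promoter: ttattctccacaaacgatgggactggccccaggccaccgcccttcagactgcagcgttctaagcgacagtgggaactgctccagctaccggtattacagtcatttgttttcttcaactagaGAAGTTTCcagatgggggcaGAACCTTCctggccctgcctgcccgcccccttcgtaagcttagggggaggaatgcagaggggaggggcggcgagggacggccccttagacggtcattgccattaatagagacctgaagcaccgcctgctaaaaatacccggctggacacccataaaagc
This motif was added after the results were seen. It was present, on both strands since it is its own reverse complement, in 2 of the 11 promoters of genes that rose (Hspb1 and Ifitm3), in 5.15% of the 3358 promoters of tested genes and in 8.34% of all 27457. The promoter of Hspa1a, the chaperone gene with the larger rise and also among the 11, held no match in this window. All windows follow the annotated start, and whether transcription begins there in this tissue was not tested. The lack of a match therefore holds only for the window searched.

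Hmox1, the inducible heme oxygenase that breaks down heme from lysed blood, stood at 3140, 4390 and 1110 at 4 h, against 462, 552, 499, 372 and 201 at 30 min. No sample at 4 h fell into the range at 30 min, and the rise was 2.65 ± 0.38 (6.29-fold, adjusted p = 0.00012). A second Hmox1 probe set gave 2.39 and was not called (adjusted p = 0.0668 over all probe sets). Hmox1 was the only call among 15 oxidative stress genes, whose median was 0.14, and -0.007 without injury 30 min replicate 5. The mitochondrial superoxide dismutase gene Sod2 was higher without overlap (0.81, adjusted p = 0.341), and the catalase gene Cat (-0.85) and the extracellular superoxide dismutase gene Sod3 (-0.97) were lower with overlap and were not called.

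Gadd45a, a growth arrest and DNA damage gene, stood at 1460, 1200 and 533 at 4 h, against 452, 505, 329, 420 and 390 at 30 min. The lowest value at 4 h was just above the highest at 30 min, and the rise was 1.24 ± 0.29 (2.36-fold, adjusted p = 0.0386). Other probe sets of Gadd45a gave 0.56, 0.65 and 1.20, none of them called. The call was also lost without any 1 of injury 30 min replicates 1, 3, 4 or 5 (adjusted p = 0.0551 to 0.0982). Of 17 growth arrest and cell death genes it was the only call, with a list median of 0.02, and Cdkn1a, the p21 cell cycle inhibitor, overlapped between the times (246, 653 and 300 at 4 h against 170, 286, 216, 492 and 773 at 30 min, difference 0.14).

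Secreted proteins of reactive tissue formed another group. Timp1, an inhibitor of matrix metalloproteinases, stood at 4210, 5730 and 2140 at 4 h, against 797, 1040, 1120, 941 and 1130 at 30 min. Spp1, the matrix cytokine osteopontin, stood at 1640, 1500 and 296 at 4 h, against 85.4, 78.4, 59.9, 90.5 and 209 at 30 min. Lcn2, the siderophore-binding lipocalin 2, stood at 449, 439 and 170 at 4 h, against 28.9, 70.4, 74.6, 41.6 and 64.7 at 30 min. None of the 3 genes overlapped between the times, and in each the third sample at 4 h was the nearest to the earlier group.

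The rise was 1.90 ± 0.30 for Timp1 (3.73-fold, adjusted p = 0.000444), 3.25 ± 0.53 for Spp1 (9.49-fold, adjusted p = 0.000579) and 2.58 ± 0.43 for Lcn2 (5.98-fold, adjusted p = 0.000833). A second Timp1 probe set gave 5.08, so the size for this gene is uncertain. For Lcn2 the value of 28.9 at 30 min lay under the floor of 32.3. Its difference ran from 1.78 to 3.04 over the 17 alternatives, so its size is uncertain too. With Hspb1 these made 4 of the 15 tested reactive astrocyte genes that rose. The median of the 15 was 0.12, and 0.33 without injury 30 min replicate 5. The intermediate filament gene Vim (-0.57), the nestin gene Nes (-0.21) and the matrix gene Tnc (-0.96) lay below 0 and were not called, and Gfap was not analysed here. Among 16 genes of the plasminogen system, matrix proteases and inhibitors, Timp1 was the only call. Plaur, the urokinase receptor, overlapped (302, 120 and 143 at 4 h against 86.1, 131, 101, 134 and 202 at 30 min), and the gelatinase gene Mmp9 differed by 1.36 ± 0.73 (adjusted p = 0.634).

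Ifitm3, an interferon-induced membrane protein, stood at 2360, 2650 and 1440 at 4 h, against 815, 754, 840, 641 and 794 at 30 min. P4ha1, a catalytic subunit of collagen prolyl 4-hydroxylase, stood at 1370, 1540 and 944 at 4 h, against 602, 619, 606, 586 and 686 at 30 min. The 5 earlier samples lay close together for both genes, and every later sample was above them. The rise was 1.44 ± 0.22 for Ifitm3 (2.72-fold, adjusted p = 0.000353) and 1.03 ± 0.21 for P4ha1 (2.04-fold, adjusted p = 0.0103). The P4ha1 call was lost without injury 4 h replicate 1 or 2 (adjusted p = 0.156 and 0.225).

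S100a8 and S100a9 encode the 2 chains of calprotectin, which neutrophils carry in quantity. S100a8 stood at 265, 943 and 483 at 4 h, against 41.6, 303, 26, 10.7 and 8.03 at 30 min, and 3 of the earlier values lay under the floor of 32.3. The groups overlapped through injury 30 min replicate 2, and the rise was 3.22 ± 0.69 (adjusted p = 0.0158). Its size depends on the floor, and was 2.06 with the floor at the 25th percentile, where it was still called. The call was lost without injury 4 h replicate 2 (2.75, adjusted p = 0.302) or replicate 3, and without injury 30 min replicate 3 or 4. S100a9 stood at 699, 1060 and 380 at 4 h, against 121, 371, 59.3, 83.3 and 161 at 30 min, again with replicate 2 the highest of the earlier samples. The groups did not overlap, by 380 against 371, and the difference of 2.34 ± 0.60 was not called (adjusted p = 0.073). Of 6 neutrophil genes tested, S100a8 was the only call and the median was 0.58. The chemokine receptor genes Cxcr2 and Cxcr1, other neutrophil markers, were not called.

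Markers of other cell types were read beside these rises. The mean log2 level of the 6 neutrophil genes was 7.64 to 8.14 at 4 h and 6.37 to 7.52 at 30 min, but S100a8 and S100a9 are 2 of the 6, so this is no separate measure. The other 4, Mmp9 (1.36), Cxcr1 (-0.50), Cxcr2 (-0.19) and the defensin gene Defa5 (-0.90), overlapped between the times, and 3 of the 6 lay above 0. That of 7 red blood cell genes was 10.5 to 10.9 at 4 h and 9.72 to 10.8 at 30 min, which overlap. The median difference of the 7 was 0.65, behind only the cytokine list among the 30, with 0 called by limma and 2 higher and none lower at an unadjusted p below 0.05. Hbb, the adult beta globin, was above the earlier range in all 3 later samples (27600, 23400 and 20500 at 4 h against 17200, 15700, 10700, 16700 and 9190 at 30 min), and its difference of 0.81 was not called (adjusted p = 0.626). Whether blood in the disk moved any of the called genes was not tested.

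The 16 tested genes of meninges, choroid plexus and pituitary had a median of -0.67, the lowest of the 30 lists, with 0 called by limma and 4 at an unadjusted p below 0.05, all lower at 4 h. Their mean log2 level was 8.66 to 9.07 at 4 h and 9.14 to 9.99 at 30 min, which do not overlap. Without injury 30 min replicate 5 the list median was -0.54. The fibrillar collagen gene Col1a2 stood at 373, 338 and 221 at 4 h, against 574, 626, 641, 644 and 1640 at 30 min (-1.31, adjusted p = 0.301), without overlap. The transthyretin gene Ttr, the defining marker of choroid plexus, was uneven within both groups: 485, 275 and 16000 at 4 h, against 16700, 481, 10900, 846 and 34000 at 30 min. The spread of Ttr within each time was wider than the difference between the times (-1.90 ± 1.65, adjusted p = 0.721), and the part of such tissue in the results was not tested. Neuronal and synaptic genes, the markers of the labelled tissue, had a mean log2 level of 12.02 to 12.35 at 4 h and 11.36 to 12.18 at 30 min, with none of the 24 called or below an unadjusted p of 0.05. The 11.36 was that of injury 30 min replicate 5, and the other samples at 30 min lay at 11.91 to 12.18. The median difference of this list was 0.27, and 0.05 without that array.

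Among the 16 microglia and macrophage genes tested, none was called by limma and 1 had an unadjusted p below 0.05, higher at 4 h. Of the 16, 11 lay above 0, with differences of -0.52 to 1.29 and a median of 0.22. In a bulk disk, fewer cells of a type and less RNA per cell cannot be told apart. P2ry12, the ADP receptor of surveying microglia, which was not on that list, stood at 87.6, 95.4 and 289 at 4 h, against 440, 586, 553, 274 and 636 at 30 min. It was low in replicates 1 and 2 at 4 h, and replicate 3 overlapped with injury 30 min replicate 4. The difference was -1.83 ± 0.36 (3.56-fold lower, adjusted p = 0.00636), and the call was lost without injury 4 h replicate 1 or 2 (adjusted p = 0.17 and 0.173). On that list the microglial fractalkine receptor gene Cx3cr1 (-0.25) and Aif1 (-0.52, the lowest), which encodes the marker Iba1, were not called. Cx3cr1 stood at 78.6, 253 and 265 at 4 h, against 295, 415, 262, 292 and 40.9 at 30 min. Aif1 stood at 181, 135 and 120 at 4 h, against 222, 259, 222, 193 and 147 at 30 min. In both genes the lowest earlier value was that of replicate 5, the array that stood apart, and it pulled these differences toward 0. Most members of the list lay above 0.

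Slco1a4, an organic anion transporter of brain capillary endothelium, stood at 817, 587 and 823 at 4 h, against 1670, 1520, 1470, 1570 and 3360 at 30 min. RT1-DMb, a chain of the rat class II molecule that loads peptides, stood at 184, 157 and 467 at 4 h, against 518, 746, 722, 798 and 653 at 30 min. All later samples were below all earlier ones for both genes. The difference was -1.31 ± 0.30 for Slco1a4 (2.48-fold lower, adjusted p = 0.0325) and -1.51 ± 0.34 for RT1-DMb (2.85-fold lower, adjusted p = 0.0221). Other RT1-DMb probe sets gave -0.67 and -1.36 and were not called. Both calls were lost without injury 4 h replicate 1 or 2. The Slco1a4 call was also lost without injury 30 min replicate 5 (-1.08, adjusted p = 0.108) or replicate 1 and without injury 4 h replicate 3, and the RT1-DMb call without any 1 of injury 30 min replicates 2, 3 or 4. Slco1a4 was the only call among 18 endothelial and pericyte genes, whose median was -0.41, and -0.23 without injury 30 min replicate 5.

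No other gene fell. The genes lower at 4 h without overlap that came next by unadjusted p were Slfn5 (-1.12, adjusted p = 0.0606), the DNA primase subunit gene Prim2 (-1.62, adjusted p = 0.0668), the fucosidase gene Fuca1 (-0.80, adjusted p = 0.163) and the monooxygenase gene Fmo1 (-1.37, adjusted p = 0.168). Slfn5 stood at 406, 298 and 400 at 4 h, against 543, 752, 1230, 598 and 1060 at 30 min. Prim2 stood at 190, 122 and 156 at 4 h, against 372, 367, 380, 922 and 495 at 30 min. Both gained the call without the 4 arrays that stood apart (adjusted p = 0.02 for each).

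No immediate early gene was called between the times. Of 19 tested transcription factors of this class 0 were called by limma, 7 lay above 0 and 4 had an unadjusted p below 0.05 (2 higher and 2 lower at 4 h). The median was -0.22, and -0.04 without injury 30 min replicate 5. Fos stood at 6120, 3110 and 7750 at 4 h, against 7180, 5990, 5300, 9780 and 3900 at 30 min, beside 2730, 2750 and 2290 in naive cortex. In sham cortex Fos stood at 2040, 2770, 8120 and 5910 at 4 h and at 5260, 5080, 3800 and 7050 at 30 min. Injured Fos differed from sham by 0.38 at 4 h (adjusted p = 0.468) and by 0.25 at 30 min, neither called. Without the 4 arrays that stood apart its difference from sham at 4 h was 1.15 (adjusted p = 0.0586). Egr1 stood at 16900, 8820 and 25500 at 4 h, against 22400, 21200, 14200, 19100 and 48500 at 30 min. These genes encode early transcription factors, and the groups overlapped for Fos (-0.22 ± 0.34, adjusted p = 0.838) and Egr1 (-0.55 ± 0.44, adjusted p = 0.699), with injury 4 h replicate 2 below every sample at 30 min in both.

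Nr4a1, a nuclear receptor of the same class, stood at 4420, 1260 and 11000 at 4 h, against 11300, 7040, 8400, 8740 and 7540 at 30 min. Replicates 1 and 2 lay below every earlier sample and replicate 3 inside their range (-1.10 ± 0.51, adjusted p = 0.562). Dusp1, a phosphatase that shuts off MAP kinases, had the same arrangement, with 1560, 1440 and 4280 at 4 h against 5280, 3380, 3720, 3130 and 3480 at 30 min (-0.81 ± 0.54, adjusted p = 0.651). Klf4, a zinc finger factor, was lower at 4 h without overlap (431, 507 and 425 at 4 h against 843, 826, 555, 940 and 2180 at 30 min) and was not called (-1.08, adjusted p = 0.36).

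Jun, a partner of Fos in AP-1, stood at 4440, 3620 and 3420 at 4 h, against 2450, 2340, 3480, 2080 and 1410 at 30 min, so that a single earlier sample reached the later range (0.75 ± 0.49, adjusted p = 0.651). Junb (-0.04), the synaptic gene Arc (-0.10) and the neurotrophin gene Bdnf (0.00) overlapped, and their sign turned under other settings. The stress factor gene Atf3 (0.91, adjusted p = 0.443) and the Fos relative Fosl1 (1.68, adjusted p = 0.439) were the most positive of the class and were not called. Ptgs2, the inducible cyclooxygenase, stood at 963, 679 and 2270 at 4 h, against 1080, 690, 761, 479 and 2420 at 30 min (0.31 ± 0.44, adjusted p = 0.826). Against sham at 4 h Jun was called (2.73 ± 0.51, adjusted p = 0.00234), and also without the 4 arrays that stood apart (1.31, adjusted p = 0.0447). Junb (1.89, adjusted p = 0.0356) and Dusp1 (2.66, adjusted p = 0.00774) were called against sham at 4 h too, but not without the 4 arrays.

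**Figure D3:**
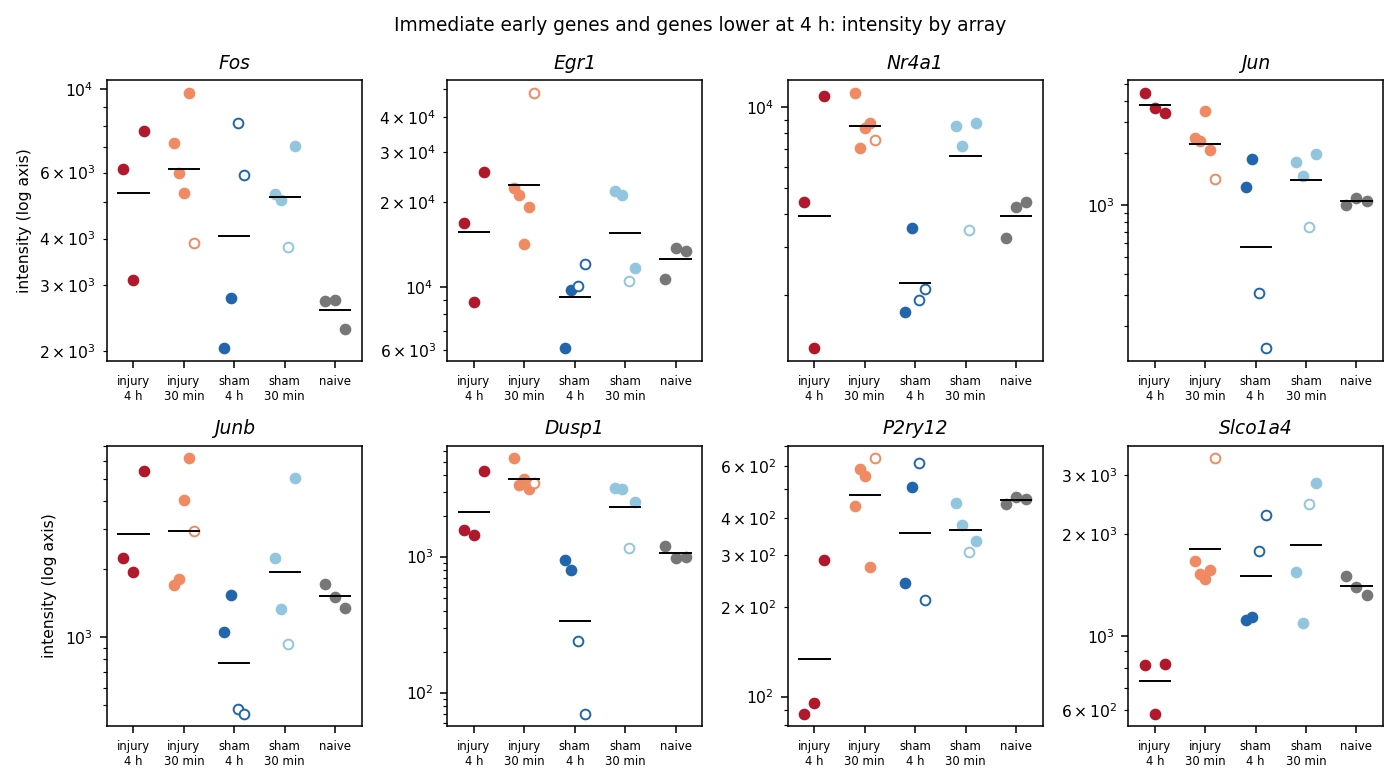
Intensity on a log axis for 6 early response genes and for P2ry12 and Slco1a4, with 1 point an array for injury 4 h, injury 30 min, sham 4 h, sham 30 min and naive cortex. Open points are the 4 arrays that stood apart, and bars are geometric means. In the panels of Nr4a1 and Dusp1, replicates 1 and 2 at 4 h after injury lie below all samples at 30 min while replicate 3 lies among them.

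Adhesion molecules and the hypoxia genes had few calls. Of 8 adhesion genes Spp1 was the only one that rose (median 0.49). Icam1, the endothelial ligand of leukocyte integrins, stood at 1760, 2100 and 1350 at 4 h, against 426, 360, 528, 959 and 1160 at 30 min. These did not overlap, and the difference of 1.47 ± 0.38 was not called with all arrays (adjusted p = 0.073) and was called without injury 30 min replicate 5 (1.69, adjusted p = 0.0225). Of 20 hypoxia and glycolysis genes 17 lay above 0 (median 0.25), 0 were called by limma and 3 had an unadjusted p below 0.05. The angiogenic factor gene Vegfa (1.19, adjusted p = 0.258) and the neuronal glucose transporter gene Slc2a3 (1.01, adjusted p = 0.24) were higher without overlap.

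**Figure D4:**
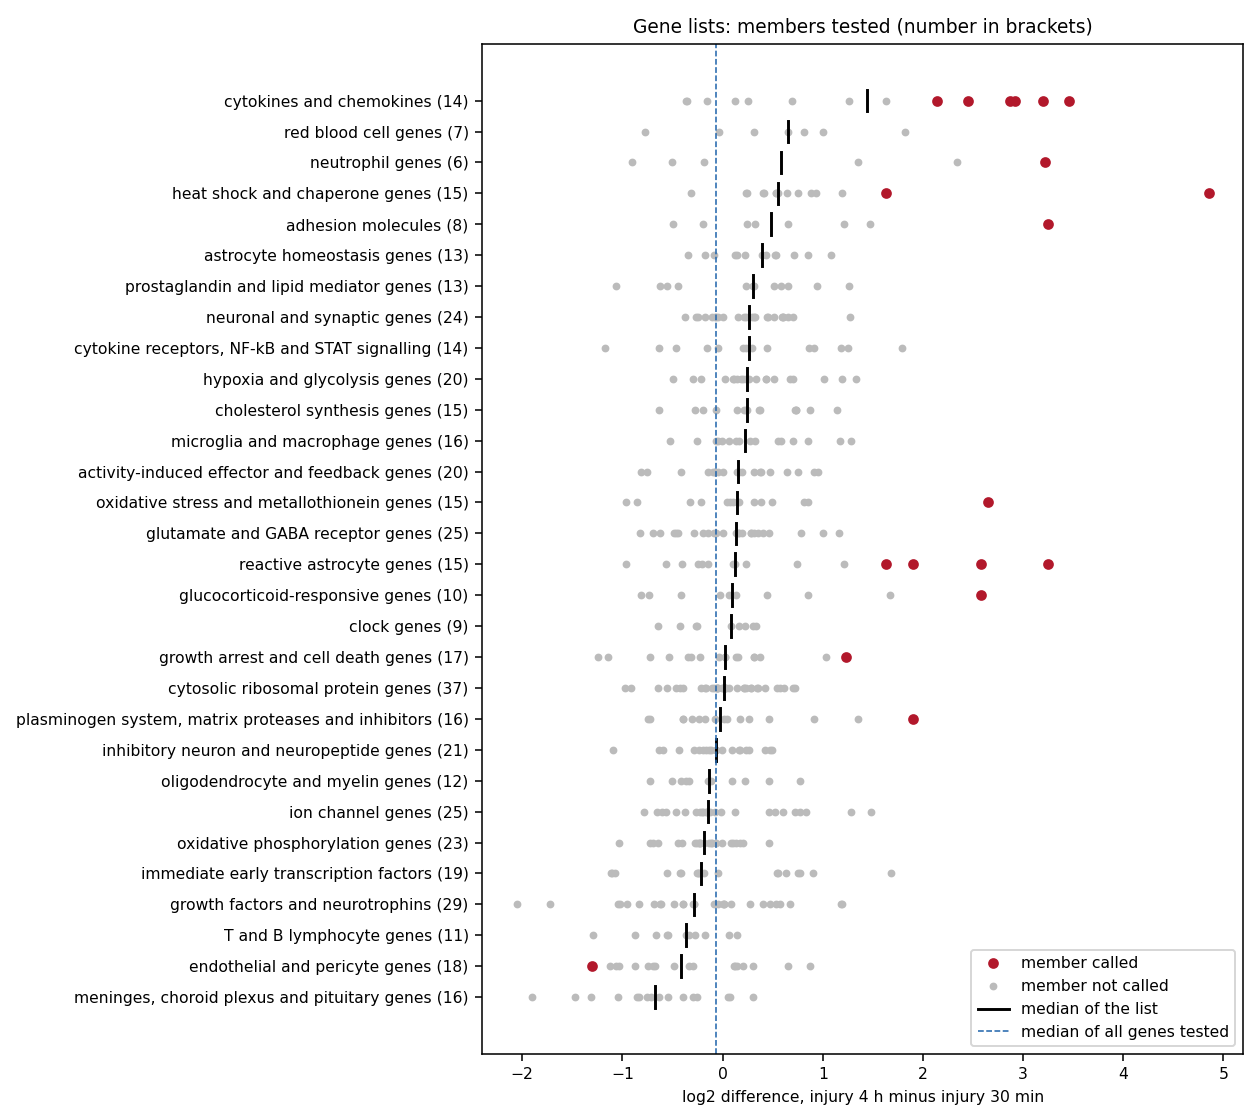
Each row is 1 of 30 gene lists, each point the log2 difference, injury 4 h minus injury 30 min, of 1 tested member, and the black bar the median of the list. The dashed line is the median of all genes tested, -0.06. Cytokines and chemokines have the highest median, 1.44, with 6 of 14 members called, and meninges, choroid plexus and pituitary genes the lowest, -0.67, with none called.

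Sham-operated cortex shows what differed between the same times without the pressure pulse. At 4 h against 30 min after sham surgery 1 of 4089 genes was called (0.0245%) and 602 had an unadjusted p below 0.05. The call was Dusp1, at 952, 798, 241 and 69.9 in sham cortex at 4 h, against 3190, 3160, 1160 and 2530 at 30 min (-2.79, adjusted p = 0.0263). It was lost without sham 4 h replicate 3 or 4, which stood apart, or sham 30 min replicate 1 or 2. Without sham 4 h replicate 1 the sham contrast had 278 calls, and without replicate 2 it had 270, with the 2 arrays that stood apart then most of the group. None of the 19 genes called after injury was called in sham. Their sham differences among genes that rose ran from -0.41 (Ccl3) to 1.99 (Hspa1a), and Hspa1a stood at 247, 641, 329 and 1230 in sham cortex at 4 h, against 107, 133, 151 and 120 at 30 min, which did not overlap (adjusted p = 0.155).

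Whether the change after injury differed from the change after sham was tested as the difference of the 2 differences. With all arrays 0 of 4089 genes were called by limma and 600 had an unadjusted p below 0.05. The change was larger after injury for all 19 called genes, each with an unadjusted p below 0.05, and the adjusted p of these 19 was 0.108 to 0.316. Timp1 (1.90 ± 0.42) and Ifitm3 (1.42 ± 0.31) had the lowest adjusted p of the 19, 0.108 each. Without the 4 arrays that stood apart 3 genes were called (0.0734%), Ccl3 (4.37), Il1b (3.39) and Icam1 (2.13), and without injury 30 min replicate 5 alone 2 were (0.0489%), Il1b and Nfkb1. Without sham 4 h replicate 1 there were 200 calls, without sham 4 h replicate 2 there were 24, and without injury 4 h replicate 3 there were 8. Since the 19 were chosen on the injured arrays that enter this test, their direction in it is not independent evidence.

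Set against sham of the same time, 17 of the 19 were also called at 4 h, where 4.99% of all genes were called. The 19 were chosen on the same injured arrays at 4 h, so this count is a description and not independent evidence. Of the 17, 15 were higher after injury (2.93% of all genes) and 2 were lower (2.05%). RT1-DMb (-0.81 ± 0.36, adjusted p = 0.129) and Hspb1 (1.03 ± 0.32, adjusted p = 0.0529) were not. Without the 4 arrays that stood apart, 12 of the 19 were called at 4 h, where 1.08% of all genes were. Those that lost the call were S100a8 (3.20 without the 4 arrays, 3.04 with them), Lcn2 (1.62 and 1.70), P2ry12 (-1.39 and -1.41), Gadd45a (0.83 and 1.11) and Slco1a4 (-0.62 and -1.04). At 30 min the 1 called gene of 4089 was Ccl3 (0.0245%), at 595, 827, 600, 539 and 869 in injured cortex against 175, 86.8, 30.5 and 165 in sham cortex. Its difference from sham was 2.83 ± 0.49 at 30 min (adjusted p = 0.00923), and 2.22 ± 0.45 without the 4 arrays (adjusted p = 0.113). At 4 h the difference of Ccl3 from sham was 5.69 ± 0.56 (adjusted p = 5.74e-08).

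**Figure D5:**
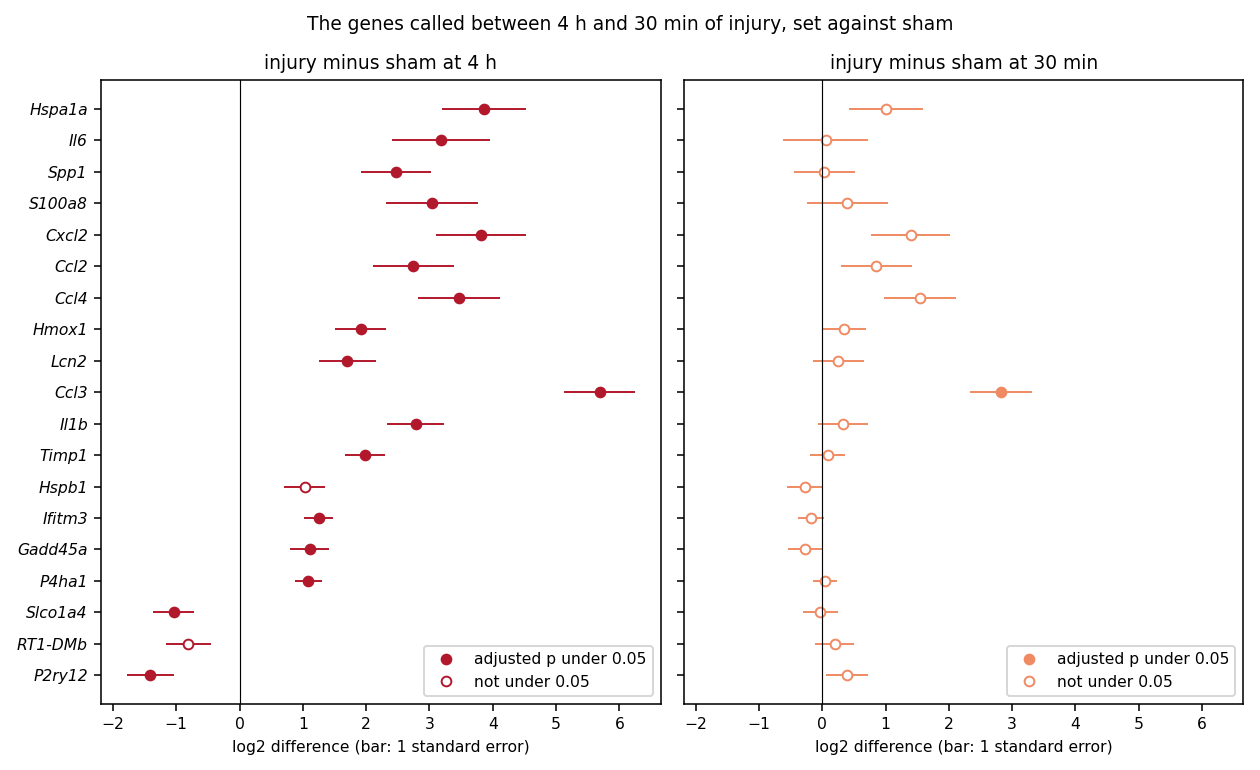
Log2 difference of injured from sham cortex for the 19 genes, at 4 h on the left and at 30 min on the right, with 1 standard error to each side. Filled points have an adjusted p below 0.05: 17 genes at 4 h, and Ccl3 alone at 30 min.

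The 3 samples at 4 h were not alike. Injury 4 h replicate 3 had the lowest value of the 3 in 15 of the 16 genes that rose, with S100a8 the exception, and the highest in all 3 that fell. Its correlation with the other rat arrays was 0.926 and its Gapdh ratio 1.04, close to those of replicates 1 and 2 (0.914 and 0.913, ratios 0.988 and 0.972). Among samples at 30 min, replicate 5 was the highest in 8 of the 16 genes that rose, among them Il1b, Il6 and Ccl2.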

How the data were processed

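The deposited intensities are linear and cover 8799 rat probe sets on 39 rat arrays. The software by which the authors made these intensities is not given in the sources used here. The mean after trimming both tails was 800.6 to 801.2 on every rat array, so the deposited intensities already shared a mean level. Their distributions still differed, with medians of 231 to 410 over all rat arrays. For the compared groups the medians were 265 to 299 at 4 h after injury and 284 to 313 at 30 min. The number of arrays limits the precision.

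Intensities were floored at the pooled 10th percentile (32.3) and taken as log2, 59 control probe sets were left out, and 7158 probe sets were kept whose intensity exceeded 203, the pooled 40th percentile, on 3 or more arrays. A gene was represented by its probe set with the highest mean, which left 4089 genes. Symbols were updated through gene IDs to RefSeq (GRCr8) for 6985 probe sets, and 21 kept the platform's symbol. Probe sets with several symbols (308) or none (1426) were not named.

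One linear model with a mean for each of 13 rat groups (26 residual degrees of freedom) was fitted (limma 3.58.1, R 4.3.3) with a mean-variance trend, two-sided tests and Benjamini-Hochberg adjustment over all genes of a contrast. The labels give 1 rat for each sample.

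The text names up to 12 called genes in each direction that changed 2-fold or more without overlap, up to 3 called members of each of 30 lists, fill-ins to 6 lower genes, 25 fixed genes, and the remaining called genes. Genes named to illustrate a list were chosen after their values were seen. The members and lists were chosen with earlier results of these data known, and so were the alternatives. Those were quantile normalization, testing without the filter, the 25th percentile as the floor, averaged probe sets, only the compared groups, a replicate block, array weights, robust variances, leaving out each array, and leaving out the 4 arrays that correlated least. Promoters were matched by symbol, and figures drawn with matplotlib 3.10.9 in Python 3.11.15.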

Additional observations from a re-analysis of the deposited data

Results flagged for a closer look

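Among 38 named genes, 2 had a sample at 30 min after injury that lay far from the other 4. S100a8 stood at 303 in injury 30 min replicate 2, where the others were 41.6, 26, 10.7 and 8.03, and this sample is why the gene's groups overlap. Slco1a4 stood at 3360 in injury 30 min replicate 5, where the others were 1470 to 1670. That array also stood apart over all genes, and the Slco1a4 call was lost without it. Chance marks about 1 in 20 groups in this way.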

How the results depend on the processing

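Injury 4 h against injury 30 min gave 19 to 28 calls under quantile normalization (18 rose, 1 fell), no filter, the 25th percentile as floor, averaged probe sets and robust variances, but 136 with array weights (all 19 kept) and 2 with only the groups compared. Leaving out 1 array gave 6 to 25, with the fewest without injury 4 h replicate 2 (6) or 1 (7), and leaving out the 4 arrays gave 32. The same-numbered samples did not deviate together (correlations -0.08, 0.06 and -0.01, where differently numbered ones gave -0.21 to 0.22). No pairing by number was seen, but so few pairs cannot settle whether there is one. A replicate block gave 19 calls, 15 of them among the 19. Over the 19 genes and 17 alternatives, 254 of 323 values kept the call, 69 lost it and 0 reversed. The sham contrast gave 0 calls with quantile normalization, no filter, mean probe sets, only its own groups or without the 4 arrays, 50 with the replicate block, 12 with array weights, and 0 to 278 leaving out 1 array (278 without sham 4 h replicate 1, 270 without replicate 2). The difference of changes gave 3 calls with the higher floor, 1 with the replicate block, 11 with array weights, 3 without the 4 arrays (Ccl3, Icam1, Il1b) and 0 to 200 leaving out 1 array (200 without sham 4 h replicate 1, 24 without replicate 2, 8 without injury 4 h replicate 3). The cause of these moves was not tested. Among named genes, signs turned only for uncalled ones: Dusp1 0.025 with averaged probe sets, Bdnf -0.15 and Junb 0.14 with the replicate block, Junb 0.22 with array weights, and Bdnf -0.12 without the 4 arrays. Leaving out 1 array gave -0.14 to 0.14 for Bdnf, -0.50 to 0.23 for Junb, -0.29 to 0.44 for Cdkn1a, -0.33 to 0.12 for Arc, -0.49 to 0.17 for Fos and -0.19 to 0.68 for Ptgs2. With 3 arrays at 4 h, leaving 1 out removes a large share of the group. Intensities near the floor have no order.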

Other observations

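Of the lists not yet described, glucocorticoid-responsive genes (10 tested, median 0.10) held 1 call, Lcn2, and the others held 0 by limma. Inhibitory neuron and neuropeptide genes (21 tested, median -0.07), glutamate and GABA receptors (25, median 0.14), oligodendrocyte and myelin genes (12, median -0.14), clock genes (9, median 0.08) and T and B lymphocyte genes (11, median -0.37) also had 0 at an unadjusted p below 0.05. Oxidative phosphorylation genes (23, median -0.18) had 3, all lower at 4 h, and cholesterol synthesis genes (15, median 0.25) had 3 higher and 1 lower. Growth factors and neurotrophins (29, median -0.28) had 3 higher and 4 lower, ion channel genes (25, median -0.15) had 3 higher, and activity-induced effector genes (20, median 0.15) had 2 higher. Prostaglandin and lipid mediator genes (13, median 0.31) had 1 higher and 1 lower, and astrocyte homeostasis genes (13, median 0.39) had 1 higher. Among 37 cytosolic ribosomal protein genes the median was 0.01, with 2 higher and 1 lower. These medians are over all arrays. Without injury 30 min replicate 5 that of growth factors and neurotrophins was -0.15 and that of ion channel genes -0.002.

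Without the 4 arrays that stood apart, 13 genes joined the 19 and none left. Those higher at 4 h included the lipid droplet coat gene Plin2 (1040, 995 and 404 at 4 h against 119, 164, 287, 158 and 256 at 30 min) and the membrane-binding annexin gene Anxa2 (1740, 2610 and 910 at 4 h against 475, 670, 751, 688 and 822 at 30 min). Plin2 differed by 2.00 ± 0.51 (adjusted p = 0.0668) and Anxa2 by 1.26 ± 0.32 (adjusted p = 0.0621) with all arrays, and without the 4 their adjusted p was 0.0177 for Plin2 and 0.0192 for Anxa2. Both genes were named after their values were seen.

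Over all 7158 probe sets, 37 were called, 31 of them higher. Of the 37, 2 had no gene symbol and 6 had several, and were not named.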
